A study of Mus musculus with 6 samples.

Results

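A stretch of 1.81 Mb on distal mouse chromosome 4 (GRCm38, chr4:154157485-155966629) holds 9 genes whose RNA differed between oocytes with and without Khdc3, and they differed in both directions. Of the 9, Tprgl, Gnb1 and Mxra8 were higher in Khdc3-null oocytes, and Ttc34, Mmp23, Aurkaip1, Dvl1, Ube2j2 and Fam132a were lower. The genes were taken by name from a table of 53656 gene symbols. They were selected on their position and on the difference in RPKM between the genotypes in these same 6 libraries, so their differences are given as a description, without a test. All 9 are among the 12272 genes that were tested, which are those with at least 1 RPKM (reads scaled to gene length and to sequencing depth) in at least 3 of 6 libraries. Of all tested genes, 2.74% were called different between the genotypes in a limma fit at an adjusted p under 0.05, 1.6% higher and 1.14% lower in the null. All 9 genes were called, and nothing is read from that count, since the call was part of their selection. With 1 library left out, 6 to 9 of them were called, beside 151 to 289 of all 12272 tested genes. Without the filter on low values 5 of them were called, beside 94 of 34219 genes.

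The study compared the transcriptomes of mouse oocytes of 2 genotypes, wild type (WT) and Khdc3-null (KO), with 3 libraries each. Oocytes were dissected by hand from ovaries, and their total RNA was made into strand-keeping (directional) libraries. The labels give no strain, age or oocyte stage, no number of oocytes or animals per library, and no type of null allele. Nor do they say if each library came from other animals, and the p-values here therefore cover no more than the spread between these libraries. Depth, taken as the read total by which the RPKM values were scaled and recovered from them, ranged from 34640170 to 43343444 reads. Which reads this total includes was not checked. Khdc3, which encodes a protein of the oocyte's subcortical maternal complex, was at 423, 425 and 502 RPKM in the WT libraries and at 0.224, 0.217 and 0.113 RPKM in the KO libraries, as the labels have it. All 15 oocyte markers were tested, 0 were called and 3 had an unadjusted p under 0.05, beside 19% of all tested genes. A positive difference was found for 2 of the 15, beside 53.1% of all tested genes. The summed level of the 15 was 17200 to 18300 RPKM in WT and 16400 to 17000 RPKM in KO. In bulk RNA, fewer cells of a type and less RNA per cell cannot be told apart.

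The distal end of mouse chromosome 4 is dense in genes and is largely shared in gene content with the tip of the short arm of the largest human chromosome. A growing oocyte makes and stores RNA that it later uses when transcription has stopped, so an RNA level there reflects both synthesis and decay. The 9 genes are not known for a common pathway: they encode signalling proteins (Gnb1, Dvl1), cell-surface and secreted proteins (Mxra8, Mmp23, Fam132a), proteins of the mitochondrial ribosome and of protein degradation (Aurkaip1, Ube2j2), a vesicle protein (Tprgl) and a repeat protein with little known about it (Ttc34).

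RefSeq start-site windows (GRCm38.p6, 250 bases before to 50 bases after the start) were found for 7 of the 9 genes. No window was used for Aurkaip1 and Fam132a. Those of 4 genes on the plus strand are printed here because they set a higher gene beside a lower one: Gnb1 and Ttc34 had the largest differences in either direction among the 7, and Mxra8 and Dvl1 follow each other on the chromosome. Capitals mark matches on either strand to 4 short motifs: the TATA box (letters TATAAA), the CCAAT box (letters CCAAT), the GC box (letters GGGCGG, which reads CCGCCC on the other strand) and the E-box (letters CANNTG). Matches may overlap. The windows are chr4:155491111-155491410 for Gnb1, chr4:154837166-154837465 for Ttc34, chr4:155839430-155839729 for Mxra8 and chr4:155847152-155847451 for Dvl1.
Gnb1: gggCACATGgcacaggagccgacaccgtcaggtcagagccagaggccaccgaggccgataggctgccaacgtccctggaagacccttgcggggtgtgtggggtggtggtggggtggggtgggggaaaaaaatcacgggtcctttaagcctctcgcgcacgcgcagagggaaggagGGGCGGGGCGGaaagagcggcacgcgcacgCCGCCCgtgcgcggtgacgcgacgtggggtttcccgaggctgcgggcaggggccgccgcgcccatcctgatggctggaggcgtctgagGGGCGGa
Ttc34: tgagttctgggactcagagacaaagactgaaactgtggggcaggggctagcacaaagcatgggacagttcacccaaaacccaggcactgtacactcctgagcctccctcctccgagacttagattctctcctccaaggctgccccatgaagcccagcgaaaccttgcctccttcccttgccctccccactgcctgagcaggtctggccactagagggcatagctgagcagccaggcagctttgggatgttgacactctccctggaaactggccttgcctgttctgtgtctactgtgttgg
Mxra8: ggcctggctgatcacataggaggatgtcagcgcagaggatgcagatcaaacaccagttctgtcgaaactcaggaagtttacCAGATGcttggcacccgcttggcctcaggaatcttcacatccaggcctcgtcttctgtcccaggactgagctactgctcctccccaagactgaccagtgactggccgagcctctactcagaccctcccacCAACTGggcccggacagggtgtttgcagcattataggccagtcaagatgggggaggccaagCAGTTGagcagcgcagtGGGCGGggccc
Dvl1: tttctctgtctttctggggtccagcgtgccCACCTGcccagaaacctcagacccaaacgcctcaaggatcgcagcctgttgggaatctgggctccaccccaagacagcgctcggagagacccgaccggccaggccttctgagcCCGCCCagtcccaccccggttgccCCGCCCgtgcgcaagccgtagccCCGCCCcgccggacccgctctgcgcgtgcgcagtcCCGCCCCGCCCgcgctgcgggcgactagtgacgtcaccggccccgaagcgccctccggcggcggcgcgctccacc
The 4 windows differ in their CpG dinucleotides. Dvl1 had 35 and Gnb1 had 31, Mxra8 had 8 and Ttc34 had 2, against a median of 7 over the 32817 RefSeq windows of the same length. GGGCGG was matched 5 times in Dvl1, 4 times in Gnb1, once in Mxra8 and nowhere in Ttc34, and 35.6% of all windows hold it. CANNTG was matched 3 times in Mxra8, once each in Gnb1 and Dvl1 and nowhere in Ttc34, and 72.3% of all windows hold it. TATAAA, held by 13.6% of all windows, and CCAAT, held by 37.4%, were matched in none of the 4. Tprgl, a higher gene whose window is on the minus strand (chr4:154160635-154160934), had 34 CpG and 3 matches to CCAAT. Higher and lower genes thus both include windows rich in CpG (Tprgl and Gnb1, Dvl1) and windows near or below the median (Mxra8, Ttc34).

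**Figure D1:**
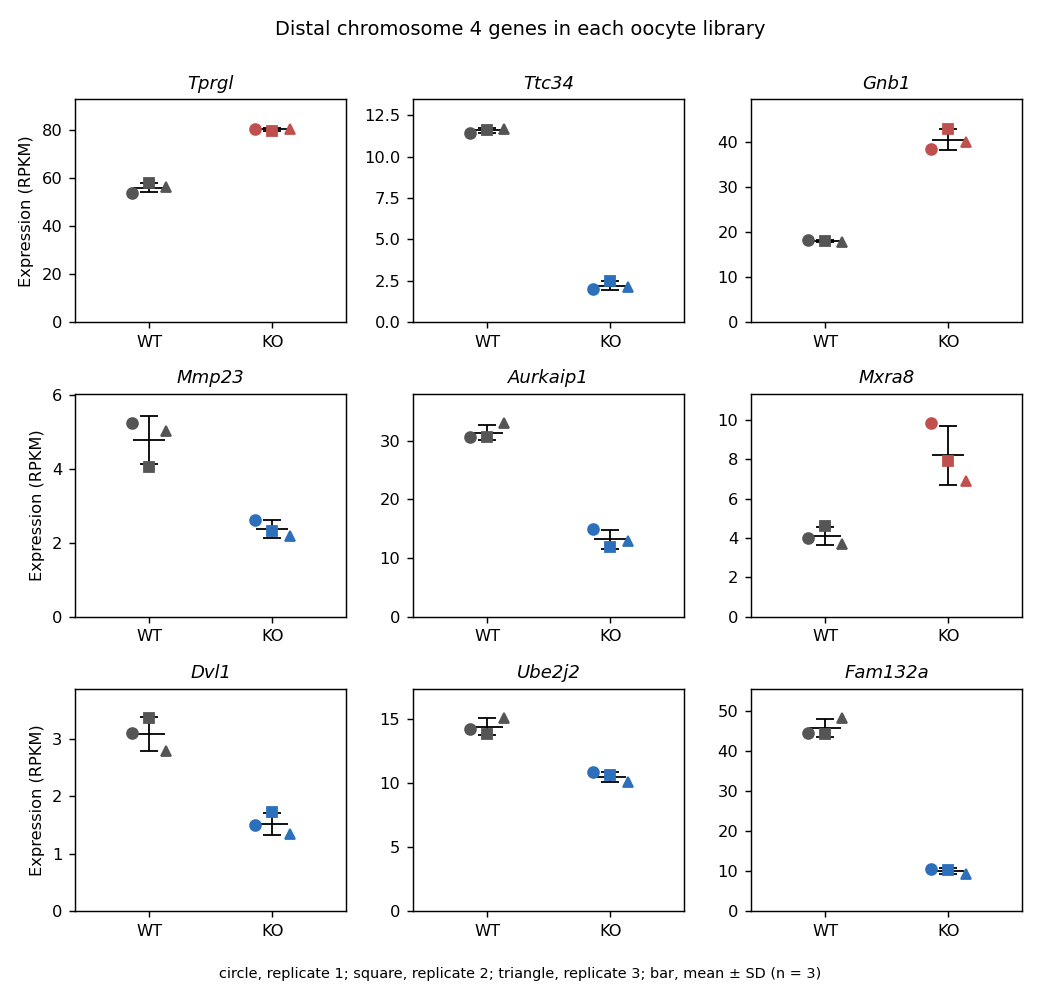
Expression in RPKM (linear axes from 0, one panel per gene) of the 9 genes in each of 3 WT and 3 KO oocyte libraries. Points are libraries and bars are the mean ± SD. In every panel the KO libraries lie apart from the WT libraries, from 1.98 to 2.5 against 11.4 to 11.7 RPKM for Ttc34 and from 38.4 to 42.9 against 17.7 to 18.2 RPKM for Gnb1.

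Of the signalling genes, Gnb1 was higher and Dvl1 lower in KO. Gnb1 (ENSMUSG00000029064.15, chr4:155491361-155559269, plus strand) encodes the beta-1 subunit of heterotrimeric G proteins, which pass signals from cell-surface receptors. It measured 18.2, 17.9 and 17.7 RPKM in the WT libraries and 38.4, 42.9 and 39.8 RPKM in the KO libraries. Every KO library was far above every WT library, and the WT libraries were nearly equal. The means were 17.9 ± 0.226 and 40.4 ± 2.3 RPKM (SD, n = 3 each), a ratio of 2.25 and a difference of 1.13 ± 0.07 (SE) on the log2(RPKM + 1) scale. Gnb1 moved from place 3296 to place 1596 when the tested genes are ordered by mean level. Dvl1 (ENSMUSG00000029071.16, chr4:155847402-155859303, plus strand) encodes a Dishevelled protein, which relays Wnt signals from Frizzled receptors. Its level was low, 3.09, 3.36 and 2.79 RPKM in WT and 1.49, 1.72 and 1.34 RPKM in KO. The highest KO library was well below the lowest WT library. The means were 3.08 ± 0.288 and 1.52 ± 0.191 RPKM, so KO held 49.3% of the WT level, a log2 difference of -0.7 ± 0.11. Dvl1 shares 36 exon bases with Tas1r3 on the opposite strand, which had at most 0.147 RPKM in any library.

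Of the cell-surface and secreted genes, Mxra8 was higher in KO, and Mmp23 and Fam132a were lower. Mxra8 (ENSMUSG00000029070.9, chr4:155839680-155844088, plus strand) encodes an immunoglobulin-domain protein of the cell surface, known as an entry receptor for alphaviruses. It was at 3.99, 4.62 and 3.68 RPKM in WT and at 9.84, 7.9 and 6.88 RPKM in KO. All KO libraries were above all WT libraries, and the KO libraries were the most scattered of any of the 9 genes, with a coefficient of variation of 18.3%. The means were 4.1 ± 0.481 and 8.21 ± 1.5 RPKM, a ratio of 2.0 and a log2 difference of 0.84 ± 0.13. Its exons share 211 bases with the antisense gene Mxra8os, which was listed at 0 in all 6 libraries. The strand setting of the read counting is unknown here, so reads of Mxra8, Ttc34 and Dvl1 and of the genes across from them may not be fully separated.

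Most tested markers of ovarian somatic cells had positive differences, and their part in the difference of Mxra8 or of the other genes was not tested. The list for stroma, smooth muscle and ovarian surface epithelium has 14 markers, of which 9 were tested, 8 of these had a positive difference, 1 was called and all 9 had an unadjusted p under 0.05, beside 19% of all tested genes. The tested marker with a negative difference was Myh11 (log2 difference -0.22 ± 0.08). The summed level of the list was 29.3 to 36.2 RPKM in WT and 37.9 to 49.5 RPKM in KO. The called marker, the smooth-muscle actin gene Acta2, was at 6.27, 5.86 and 4.61 RPKM in WT and 12.2, 9.51 and 8.82 RPKM in KO (log2 difference 0.76 ± 0.14, adjusted p = 0.034, limma). Of 20 granulosa and cumulus markers, 17 were tested, all with a positive difference, 1 was called (Nr5a1) and 7 had an unadjusted p under 0.05. Their sum was 228 to 376 RPKM in WT and 419 to 543 RPKM in KO. Sums for leukocytes were 2.6 to 5.23 and 7.12 to 15.9 RPKM, and those for theca and luteal cells (23.8 to 132 and 102 to 125), endothelium (19.0 to 20.1 and 16.3 to 20.2) and erythroid cells (17.5 to 73.2 and 8.88 to 71.6) overlapped between WT and KO. Positive differences were found for 2 of 2 tested leukocyte markers and 3 of 4 theca and luteal markers. They were found for 1 of 3 endothelial and 0 of 3 erythroid markers. No marker in any of these lists was at 0 in all libraries.

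Fam132a (listed as C1qtnf12 in GENCODE M21, ENSMUSG00000023571.4, chr4:155962318-155966629, plus strand) encodes a secreted C1q/TNF-related protein, also called adipolin, which improves insulin response in mice. Its WT libraries held 44.6, 44.3 and 48.3 RPKM and its KO libraries 10.6, 10.4 and 9.22 RPKM. The groups were far apart and each was tight. KO retained 22.0% of the WT mean (45.7 ± 2.22 against 10.1 ± 0.742 RPKM), a log2 difference of -2.08 ± 0.08. Fam132a fell from place 1365 to place 4951 among the tested genes. Mmp23 (ENSMUSG00000029061.2, chr4:155650655-155653384, minus strand) encodes a membrane-anchored metalloproteinase. It was at 5.24, 4.04 and 5.04 RPKM in WT and at 2.63, 2.31 and 2.18 RPKM in KO. The second WT library was the lowest of its group and still lay above every KO library. The means were 4.78 ± 0.645 and 2.37 ± 0.235 RPKM, so KO held 49.7% of the WT level (log2 difference -0.77 ± 0.11). It had the fewest reads of the 9 genes, 218 in the second KO library.

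Aurkaip1 and Ube2j2, which serve protein synthesis in mitochondria and protein disposal, were both lower in KO. Aurkaip1 (ENSMUSG00000065990.12, chr4:155831272-155833130, plus strand) encodes a protein of the small subunit of the mitochondrial ribosome that was first described as a binding partner of Aurora kinase A. It was at 30.7, 30.6 and 33 RPKM in WT and at 14.9, 11.8 and 12.9 RPKM in KO. The first KO library was the highest of its group and was still far below the lowest WT library. The means were 31.4 ± 1.34 and 13.2 ± 1.61 RPKM, 42.0% of WT, with a log2 difference of -1.2 ± 0.09. Ube2j2 (ENSMUSG00000023286.16, chr4:155943831-155959604, plus strand) encodes a ubiquitin-conjugating enzyme anchored in the endoplasmic reticulum (ER), where it takes part in the degradation of misfolded proteins. Its level was 14.2, 13.8 and 15.1 RPKM in WT and 10.9, 10.6 and 10.1 RPKM in KO. The groups did not overlap, but the gap was the smallest in relative terms among the lower genes. KO held 73.1% of the WT mean (14.4 ± 0.67 against 10.5 ± 0.391 RPKM), a log2 difference of -0.42 ± 0.07. Of its 4628 distinct 50-base exon stretches, 10% also occur in exons of 38 other annotated genes, so part of its reads may have been counted elsewhere or not at all. Of the other 8 genes, Mxra8 (5.3%, with Mxra8os), Ttc34 (1.1%, with the antisense gene Gm13112) and Tprgl (0.17%) share stretches, and the rest share none.

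Tprgl and Ttc34 lie at the centromere-facing side of the stretch. Tprgl (ENSMUSG00000029030.14, chr4:154157485-154160666, minus strand) encodes a vertebrate synaptic vesicle protein also known as Mover. It was the most abundant of the 9 genes, at 53.9, 57.8 and 56.3 RPKM in WT and 80.6, 79.7 and 80.7 RPKM in KO. The KO libraries were almost identical, and all lay above the WT libraries. The means were 56 ± 1.96 and 80.3 ± 0.579 RPKM, 143% of WT, with a log2 difference of 0.51 ± 0.06. The gene lies within the span of Wrap73 on the opposite strand, with no exon bases in common. Ttc34 (ENSMUSG00000046637.3, chr4:154837459-154867127, plus strand) encodes a predicted protein with tetratricopeptide repeats, a fold that binds other proteins. It was at 11.4, 11.6 and 11.7 RPKM in WT and 1.98, 2.5 and 2.13 RPKM in KO. The WT libraries were nearly equal and every KO library was far below them. Mean levels were 11.6 ± 0.156 and 2.2 ± 0.267 RPKM, so WT held 5.25 times the KO level, and the log2 difference was -1.97 ± 0.09. By ratio Ttc34 was the lowest of the 9, at 19.1% of WT beside 22.0% for Fam132a, while on the log2(RPKM + 1) scale Fam132a differed more. Ttc34 dropped from place 4525 to place 9759 of the tested genes.

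Among themselves the 9 genes differed in direction and in size. Ratios of KO to WT ran from 0.191 (Ttc34) to 2.25 (Gnb1). Their coefficients of variation within a genotype ran from 0.721% to 18.3%, with a median of 6.54%. Over all tested genes the medians were 8.19% in WT and 10.5% in KO. A call favours genes of small spread, so the selection bears on this comparison too. In all 9 the WT and KO libraries did not overlap, which was so for 25.8% of all tested genes. Nothing is read from this, since the genes were chosen for the difference. The summed level of the 9 was 185, 188 and 194 RPKM in WT and 171, 170 and 165 RPKM in KO. Each KO sum was below each WT sum. The sum is made up mostly of Tprgl, Fam132a and Aurkaip1 in WT and of Tprgl and Gnb1 in KO. The first KO library was the highest of the KO libraries for 5 of the genes (Mmp23, Aurkaip1, Mxra8, Ube2j2 and Fam132a), which include both directions. Read numbers behind single values ran from 218 to 7846.

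**Figure D2:**
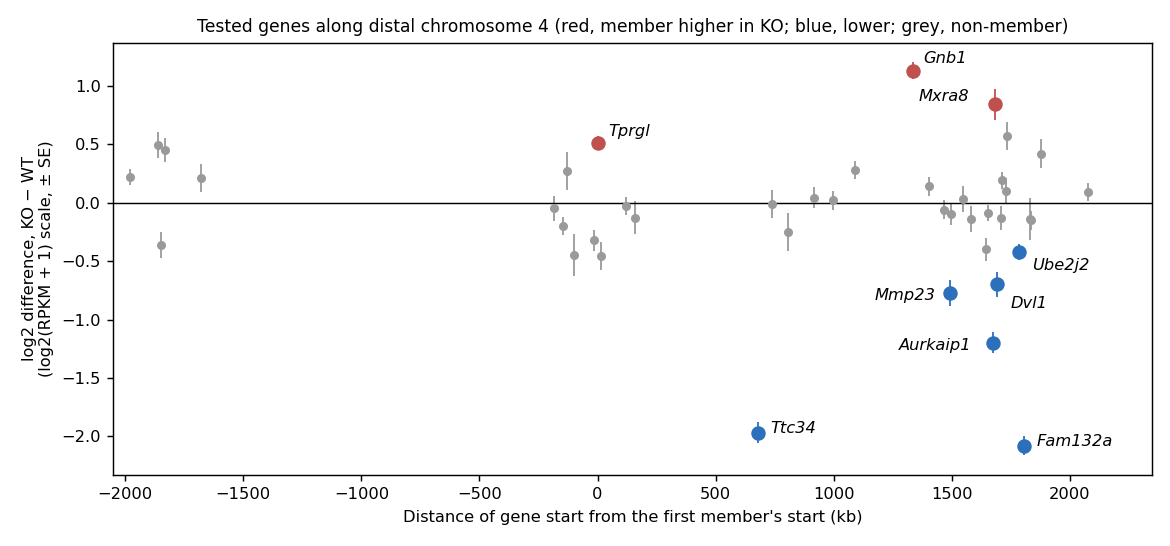
Difference between KO and WT on the log2(RPKM + 1) scale, ± SE, of tested genes against the distance of their start from the Tprgl start (kb). The higher genes (red) and lower genes (blue) are interspersed along the stretch, between 1.13 for Gnb1 and -2.08 for Fam132a, and the other tested genes (grey) lie between -0.46 and 0.57.

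Along the chromosome, higher and lower genes were interspersed. From the centromere-facing side the order was Tprgl (higher), Ttc34 (lower), Gnb1 (higher), Mmp23 and Aurkaip1 (lower), Mxra8 (higher), and then Dvl1, Ube2j2 and Fam132a (lower). Gaps between consecutive genes of the group ran from 2.7 kb (Ube2j2 to Fam132a) to 676.8 kb (Tprgl to Ttc34). Both directions were found on plus-strand genes, and both on minus-strand genes (Tprgl and Mmp23). The closest change of direction lay between Aurkaip1, Mxra8 and Dvl1, 3 plus-strand genes in a row separated by 6.6 kb and 3.3 kb. Aurkaip1 was at 42.0%, Mxra8 at 200% and Dvl1 at 49.3% of the WT mean. The interval ends 389 kb before the end of the last gene annotated on the chromosome.

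Most tested genes between the 9 differed less than they did. GENCODE M21 places 69 genes in the interval, 48 of them protein-coding, and 53 had a row in the table. Of these 53, 28 passed the filter on low values, the 9 and 19 others, and 25 did not, including 5 listed at 0 in all libraries. None of the 19 was called, which follows from how the 9 were selected. At an unadjusted p under 0.05, 5 of the 19 passed, which is 26.3% beside 19% of all tested genes. Their median difference was -0.034, 8 of 19 were positive, and they ranged from -0.46 (Megf6) to 0.57 (Acap3). The interval as a whole had 9 called of 28 tested genes, a share set by the selection of the 9, so nothing is read from it. The rest of chromosome 4 had 10 called of 632 (1.58%), and genes placed on other chromosomes had 237 of 9625 (2.46%). A window of the same length centred on Khdc3 had 2 called of 11, of which 1 was Khdc3 itself, and one centred on Tmem87a, a window taken up because of earlier results of these data, had 7 called of 31 (1 higher and 6 lower). The differences between these shares were not tested.

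Closest to the threshold inside the group stood Ube2j2 and Mxra8, and closest outside it stood Acap3. Acap3, which encodes a GTPase-activating protein for Arf GTPases, was at 1.48, 2.14 and 1.78 RPKM in WT and 2.82, 3.51 and 3.13 RPKM in KO. Its groups did not overlap, and it was higher in KO by 0.57 ± 0.12 on the log2 scale. Mrpl20, which encodes a protein of the large mitochondrial ribosomal subunit, was at 9.59, 9.97 and 9.07 RPKM in WT and 7.64, 7.28 and 6.11 RPKM in KO (log2 difference -0.4 ± 0.1). Megf6, beside Tprgl, was at 2.1, 2.35 and 1.93 RPKM in WT and 1.09, 1.56 and 1.2 RPKM in KO (-0.46 ± 0.12). The groups of these 3 genes did not overlap, which was so for 6 of the 19 non-members of the interval and 25.8% of all tested genes. The 3 were picked for lying near the threshold, so nothing is read from this. Acap3 and Megf6 differed by more on the log2 scale than Ube2j2 did, and Mrpl20 by slightly less.

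Several genes directly beside the 9 had differences near 0. Mmp23 lies 0.7 kb from Cdk11b, a kinase gene of transcription and splicing, which was at 25.7, 26.6 and 27.8 RPKM in WT and 27.2, 26.5 and 23.4 RPKM in KO (log2 difference -0.06 ± 0.08, adjusted p = 0.74, limma). On its other side, at 1.3 kb, is Mib2, a ubiquitin ligase gene, with -0.1 ± 0.09. Gnb1 lies 3.1 kb from Nadk, the NAD kinase gene, which was at 39.5, 42.4 and 38.3 RPKM in WT and 40.6, 46.6 and 45.4 RPKM in KO (0.14 ± 0.08, adjusted p = 0.37, limma). The libraries of Cdk11b, Mib2 and Nadk overlapped between WT and KO. Ccnl2, a cyclin gene 6.7 kb before Aurkaip1, was 27.0 ± 1.17 RPKM in KO and 28.9 ± 1.39 RPKM in WT, a difference of -0.09 ± 0.07. Further nearest tested neighbours were Wrap73 (-0.32 ± 0.09, across Tprgl), Faap20 (0.28 ± 0.08, before Gnb1), and Prdm16 and Fam213b (-0.13 and -0.01, on either side of Ttc34). Cptp (-0.13, after Dvl1) and B3galt6 (-0.14, after Fam132a) were the others. None of these neighbours was called. The groups of Ccnl2, Wrap73 and Faap20 did not overlap, as was so for 25.8% of all tested genes. In the 2 Mb before the interval 10 genes were tested. Of these, 7 (70%) had an unadjusted p under 0.05, beside 19% of all tested genes. The median size of their differences was 0.3, beside 0.12 over all tested genes. Between the interval and the chromosome end 4 were tested, with 1 at that level. Over all 33 non-members in and around the interval 0 were called and 13 (39.4%) had an unadjusted p under 0.05. The differences between these shares were not tested. Limma's voom on reads recovered from the RPKM values called 3 of the 33 (Acap3, Icmt and Megf6). Over all genes in that fit it called 315 of 9387.

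**Figure D3:**
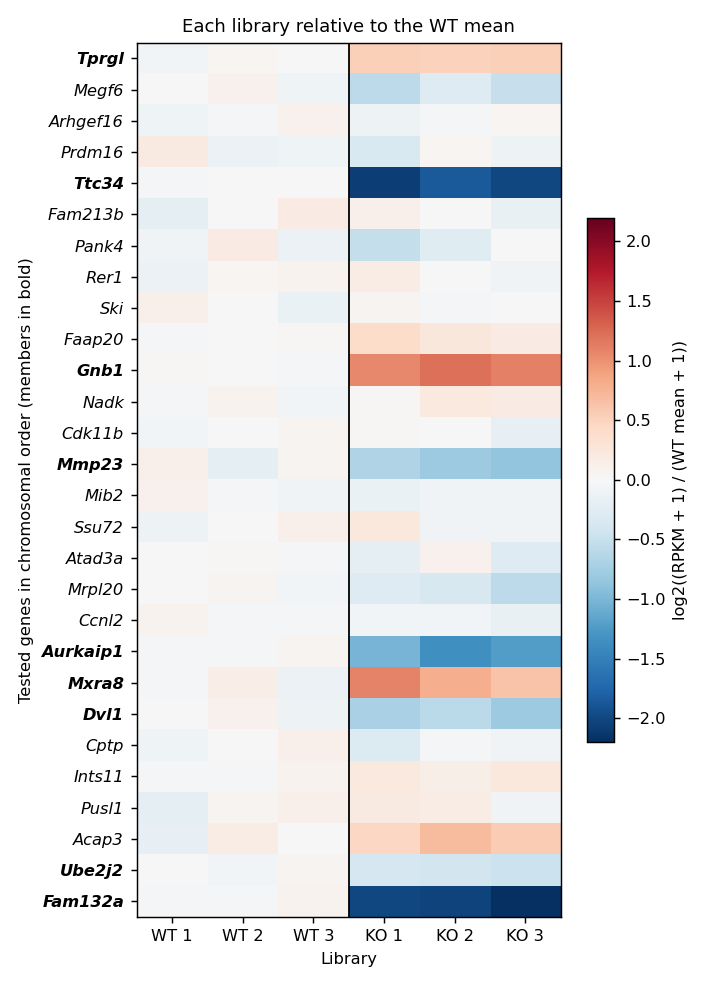
Level of each tested gene of the interval in each library relative to the WT mean, as log2((RPKM + 1) / (WT mean + 1)), with genes in chromosomal order and the 9 genes in bold. Rows of the 9 keep 1 colour across KO 1 to KO 3, deepest for Ttc34 and Fam132a, while most of the 19 rows between them stay pale in all libraries.

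Across libraries the pattern of each of the 9 was shared by all 3 KO libraries, as the map of the interval by library shows. The 9 were chosen for their difference in these same libraries, so nothing is read from that sharing. Over the 6 libraries, Pearson's r between each gene and the mean standardised profile of its own direction was 0.9718 to 0.9927 for the 3 higher genes and 0.9677 to 0.9992 for the 6 lower genes. These values describe genes chosen for this contrast and each profile contains the gene itself. Outside chromosome 4, tested genes with a profile much like the higher genes included Kcnh1 (a potassium channel gene, r = 0.9954, mean 11.1 RPKM in WT and 42.4 RPKM in KO) and Npc1 (a lysosomal cholesterol transporter gene, r = 0.9946, 3.79 and 8.44 RPKM). Most like the lower genes were Batf3 (a transcription factor gene, r = 0.9996, 11.1 and 0.896 RPKM), Nedd4l (a ubiquitin ligase gene, r = 0.9981, 25.7 and 14.3 RPKM) and Casq2 (a calcium-binding protein gene, r = 0.9976, 9.5 and 6.82 RPKM). An r of 0.99 or more was reached by 17 other tested genes for the higher profile and by 11 for the lower profile. The 6 points behind each r fall into 2 groups, which are the genotypes.

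Genes that act with the 9, or belong to their families, were then compared in 6 lists. Of 121 tested genes in these lists that are not among the 9, 1 was called and 16 had an unadjusted p under 0.05. Over all tested genes, 2.74% were called, 19% had an unadjusted p under 0.05 and 53.1% had a positive difference. Limma's voom on the recovered reads also called 1 gene of the lists, of 113 fitted, beside 315 of 9387 over all genes. The called gene was Gna12 in both, which encodes a G protein alpha subunit. It was at 27.7, 29.5 and 27.2 RPKM in WT and 18.3, 18.3 and 16.4 RPKM in KO. Its groups did not overlap, and its mean fell from 28.1 ± 1.19 to 17.7 ± 1.13 RPKM, a log2 difference of -0.64 ± 0.07 (adjusted p = 0.0047 by limma with Benjamini-Hochberg adjustment over all tested genes, 0.0025 to 0.025 over the alternatives). Gna12 and Gnb1 thus differed in opposite directions.

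**Figure D4:**
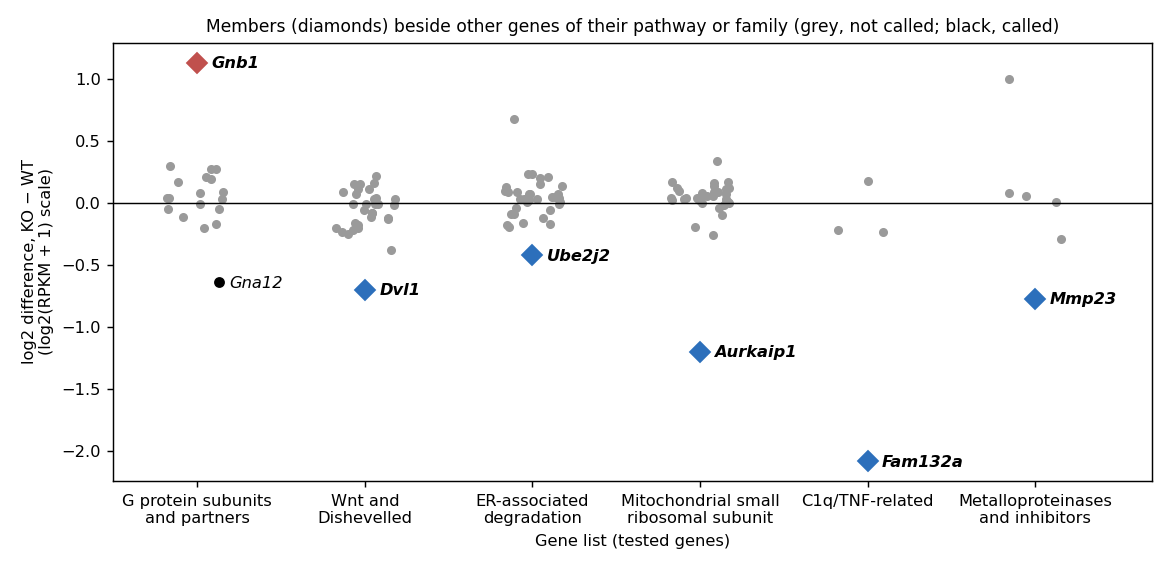
Difference between KO and WT on the log2(RPKM + 1) scale of the tested genes in 6 lists, with the gene of the distal chromosome 4 group in each list as a diamond. The other genes of each list (grey, not called; black, called) scatter around 0, apart from Gna12 at -0.64 and a few scattered points such as Timp1 at 1.0, while Gnb1 stands at 1.13 and Fam132a at -2.08.

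Among 18 other tested genes of the heterotrimeric G proteins and their oocyte partners, 6 had an unadjusted p under 0.05, 11 were positive and the median difference was 0.04, beside 0.014 over all tested genes. The remaining beta subunits were not called. Gnb4, the most abundant of them, was at 19.6, 18.7 and 19.8 RPKM in WT and 19, 17.4 and 17.3 RPKM in KO (-0.11 ± 0.07, adjusted p = 0.42, limma). Gnb2 averaged 7.05 ± 0.487 RPKM in the WT libraries and 8.34 ± 0.676 RPKM in the KO libraries (0.21 ± 0.09, adjusted p = 0.25, limma). Gnb5 was at 7.91 ± 1.61 and 9.87 ± 0.748 RPKM (0.3 ± 0.13, adjusted p = 0.27, limma). In WT, Gnb1 and Gnb4 were thus at like levels per length, and in KO Gnb1 was well above Gnb4. Gpr3, the receptor that holds oocytes in meiotic arrest, averaged 38.8 ± 6.35 RPKM in the WT libraries and 43.6 ± 4.25 RPKM in the KO libraries, with overlapping libraries.

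Of the 30 other tested Wnt and Dishevelled genes none was called by limma, 3 had an unadjusted p under 0.05, 11 were positive and the median was -0.018. Dvl1 was the least abundant of the 3 Dishevelled genes in WT. Dvl2 was at 5.4, 5.42 and 4.99 RPKM in WT and 4.73, 4.94 and 6.02 RPKM in KO (-0.01 ± 0.1, adjusted p = 0.96, limma). Dvl3 was at 13.8, 13.9 and 12.8 RPKM in WT and 15.9, 14.7 and 14.7 RPKM in KO (0.15 ± 0.07, adjusted p = 0.32, limma). Dvl3 did not overlap between the genotypes and leaned to the side opposite to Dvl1, without being called.

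In ER-associated degradation 33 other genes were tested, 0 were called by limma, 3 had an unadjusted p under 0.05, 23 were positive and the median was 0.04. Ube2j1, the paralogue of Ube2j2 in the ER membrane, had the same WT mean of 14.4 RPKM. It measured 14.5, 15 and 13.6 RPKM in WT and 11.4, 13.8 and 12.6 RPKM in KO, with overlapping groups (-0.18 ± 0.09, adjusted p = 0.31, limma). Among 32 other proteins of the small mitochondrial ribosomal subunit 0 genes were called by limma and 3 had an unadjusted p under 0.05. Of the 32, 26 were positive, beside 53.1% of all tested genes, and the median was 0.041. Aurkaip1 thus lay on the other side of 0 from most genes of its list. Mrps6 had the largest difference of these, 0.34 (adjusted p = 0.087, limma). With libraries rescaled to a common median, 21 and 23 genes of these 2 lists were positive.

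Few relatives of Fam132a and Mmp23 were expressed. Of 17 other C1q/TNF-related genes with a row 3 were tested, and 0 were called or had an unadjusted p under 0.05. Fam132b, which encodes the hormone erythroferrone, was at 7.7, 8.97 and 7.7 RPKM in WT and 6.73, 7.46 and 6.29 RPKM in KO. It leaned to the same side as Fam132a without overlap (-0.22 ± 0.1, adjusted p = 0.27, limma). Of 19 other metalloproteinase and inhibitor genes 5 were tested, 0 were called and 1 had an unadjusted p under 0.05. That gene, Mmp2, which encodes a gelatinase, was at 20.8, 18.3 and 18 RPKM in WT and 17.8, 14.2 and 14.5 RPKM in KO (-0.29 ± 0.1, adjusted p = 0.2, limma).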

How the data were processed

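RNA was measured in 3 WT and 3 KO oocyte libraries, assigned to genotype and replicate by their titles. The authors deposited 1 table of RPKM values per gene symbol. FastQC 0.11.7, STAR 2.6.0c, featureCounts 1.6.2 and the build GRCm38.p6 were used, per the submitters' processing notes. Counting settings, strand included, are not given in the sources used here. The 9 genes, the gene lists and the rule for named genes (the 9, their nearest tested protein-coding neighbours, called neighbours and list genes, paralogues, and the 3 tested genes of most like profile in either direction) were chosen with earlier results of these data known. One gene that the rule names is not reported here.

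From the deposited RPKM, log2(RPKM + 1) was computed and fitted by limma 3.58.1 under R 4.3.3 (trended prior, genotype alone in the model) over 12272 genes with an RPKM of at least 1 in at least 3 libraries, with Benjamini-Hochberg adjustment over all of them. Calls are genes with an adjusted p under 0.05. The pseudocount of 1 understates the change of low genes. The fit was tested on simulated data. These had the same spread setting for all genes and no differences in cell content. The simulation checked that the fit finds set changes, and it does not give the error rate in the real libraries. Positions come from GENCODE M21 (GRCm38), which placed 10285 of the tested genes (83.8%), and neighbours could only be sought among these. Depth was recovered from the RPKM values and exon-union lengths, which gave whole reads in all libraries for 92.4% of 19865 matched genes at a tolerance of 0.01. Alternatives were pseudocounts of 0.1 and 0.5, no filter, a filter at 5 RPKM, rescaled libraries, a replicate block, leaving out each library, and voom on the recovered reads. Python 3.11.15 with pandas 2.3.3 and matplotlib 3.10.9 was used for tables and figures.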

Additional observations from a re-analysis of the deposited data

How the results depend on the processing

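All 9 genes kept their direction under all alternatives in which they were fitted (at the 5 RPKM filter 7 were). Their WT and KO libraries did not overlap, so leaving out a library or changing the pseudocount or filter could not reverse a direction. Nothing is read from this. Without a filter 94 of 34219 genes were called (48 higher and 46 lower), in place of 336 of 12272. Among the 94 were 5 of the 9, without Mmp23, Mxra8, Dvl1 and Ube2j2. The 5 RPKM filter called 222 of 7280 genes and voom 315 of 9387. These fits cover different sets of genes, so their counts are not like for like. Leaving out 1 library gave 151 to 289 calls over all genes (195 without WT 2, 161 without WT 3, 152 without KO 2 and 151 without KO 3) and 6 to 9 calls among the 9 (7 without WT 1 or WT 2, 6 without WT 3, KO 2 or KO 3, and 9 without KO 1). Ube2j2 was lost in 5 of these 6 fits, and Mmp23, Mxra8 or Dvl1 in 2 or more. The median size of the 9 differences, 0.84, was 0.98 with a pseudocount of 0.1, 1.13 at the 5 RPKM filter, 1.03 with voom and 0.79 to 0.95 with a library left out. Of 33 neighbours 3 were called by voom (Acap3, Icmt and Megf6), 1 with the replicate block (Acap3), and 0 to 1 with a library left out (Icmt without KO 1, Rpl22 without KO 3). In the lists 1 gene was called, and 2 with the replicate block (Gna12 and Timp1). Replicate numbers did not pair the libraries (correlations of deviations -0.02, 0.21 and -0.03). The replicate block called 320 genes and 8 of the 9, without Ube2j2. The causes of these changes were not tested. Of the 9, Ube2j2 lost its call under the most alternatives.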

Other observations

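Some genes of the interval below the filter on low values had WT and KO libraries that did not overlap. They were chosen after their values were seen and were not tested. Vwa1, which encodes an extracellular matrix protein, was at 0.0876, 0.143 and 0.0273 RPKM in WT and 0.612, 0.348 and 0.261 RPKM in KO, from 11, 21 and 4 reads and 87, 51 and 41 reads. Atad3aos, an antisense gene whose neighbour Atad3a differed by -0.14, was at 0.466, 0.175 and 0.543 RPKM in WT and 0.0658, 0.032 and 0.0149 RPKM in KO, from 25, 11 and 34 reads and 4, 2 and 1 reads. Prkcz, an atypical protein kinase C gene, was at 0.43, 0.608 and 0.47 RPKM in WT and 0.282, 0.294 and 0.288 RPKM in KO. Neither group overlapped the other in any of these 3 genes, nor in Tmem88b (0, 1 and 0 reads in WT and 3, 3 and 4 reads in KO). Groups without overlap were found for 25.8% of all tested genes, so nothing is read from these.

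The antiviral gene Isg15, between the interval and the chromosome end, was listed at 0 in all 3 WT libraries and at 0.539, 0.229 and 0.214 RPKM in KO (16, 7 and 7 reads). Rnf223, in the same part, was also higher in KO without overlap (39, 42 and 28 reads in WT and 92, 46 and 125 reads in KO). Both lie below the filter, were picked after their values were seen and were not tested, so nothing is read from them.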
